A study of Mus musculus with 24 samples.

Results

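Cytosolic ribosomal protein genes encode the proteins of the ribosome that translates messages in the cytoplasm. The genes were found by symbol, as probe sets that the array annotation gives exactly 1 symbol of the form Rpl or Rps followed by a digit, or Rplp0, Rplp1, Rplp2 or Rpsa, without the S6 kinases and without pseudogenes. There were 106 such probe sets, and for each gene the one with the highest mean over all arrays was used, which left 50 genes of 18193 measured by a probe set with 1 symbol. Of the 50, 25 are named for the large subunit and 23 for the small subunit. Rps19bp1, which encodes a protein that binds Rps19, and Rpl7l1, which encodes a ribosome assembly protein related to Rpl7, fit the naming rule but are not subunits of the ribosome. A further 110 probe sets that list a ribosomal protein gene among several symbols were left out, and 31 ribosomal protein genes, among them Rpl10 and Rplp1, were measured only by these. Rps27a also had no probe set of its own.

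The RNA came from brains of male mice aged 12 weeks, give or take 1 week, killed at zeitgeber time 6, that is 6 h after light onset. The groups were polyadenylated RNA pulled down from Homer1a-expressing cells of mice kept awake by gentle handling for those 6 h (n = 6), the same pull-down from mice left undisturbed (n = 6), total RNA of the supernatants left by pull-downs (n = 4), and total RNA of unfixed whole brain, again from mice kept awake (n = 4) and from undisturbed mice (n = 4). Homer1a is the short form of a scaffold protein of the synapse that neurons make when they are active. Pull-down brains were perfused with 1% formaldehyde, the RNA was caught on anti-FLAG beads by mRNA tagging, and 10 ng of it was amplified. Mouse strain and the promoter that drives the tagged protein are not given in the sources used here. Amplification is named in the labels for pulled-down RNA only, and how the RNA of the other extracts was treated is not stated there. By their titles 3 supernatants came from sleep-deprived mice and 1 from a control, but the source field of supernatant 13, one of the 3, says control, so the supernatants were kept as 1 group of mixed treatment.

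Values are log2 intensities after RMA, which summarizes the probes of a probe set. Array medians lay between 4.37 and 5.70 in pull-down, 6.09 and 6.21 in supernatant, and 6.04 and 6.24 in whole brain, so the values still hold array-wide differences. The control probe for 18S ribosomal RNA, which has no poly(A) tail, read 6.83 to 11.14 in pull-down, 14.23 to 14.42 in supernatant and 13.79 to 13.94 in whole brain. The 3′ minus 5′ difference of Gapdh was 3.29 to 5.96 in pull-down, 2.31 to 2.59 in supernatant and 2.49 to 2.95 in whole brain. Against whole brain, pull-down was higher in 8.06% of all probe sets and lower in 76.3%, and once arrays were centred on their medians 52% and 18.3%. Of 12 neuron markers 3 were higher and 6 lower (6 and 4 once centred), and all of 8 markers of microglia and 8 of endothelial cells or pericytes were lower (4 and 7 once centred, with none higher). Of 8 astrocyte markers 1 was higher and 6 lower (2 and 3 once centred). Lower were also 6 of 7 oligodendrocyte, 5 of 6 choroid plexus and 2 of 2 blood markers, with 0 higher, and once centred 1 was higher and 4 lower, 3 higher and 1 lower, and 1 higher and 1 lower. Among neuron markers Uchl1 (−3.79) and Tubb3 (−2.75) were lower and Rbfox3 (1.45) higher, and among astrocyte markers Mlc1 (−3.98) and Aldoc (−3.27) were lower and Gfap (1.69) higher, each under all 3 scalings. Rbfox3 and Gfap were chosen after their values were seen. The part of these differences in the results below was not tested.

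Each ribosome carries a single copy of most of its proteins, and cells keep the proteins in balance. Their messages start with a 5′ terminal oligopyrimidine tract, a C followed by a run of C and T, through which growth signals by way of mTOR and the RNA-binding protein LARP1 switch their translation up or down together. In neurons ribosomes also sit in dendrites near synapses, where local translation serves plasticity. The mouse genome holds many processed pseudogenes of these genes, and the suffixes _s_at and _x_at mark probe sets designed without full specificity for a single gene.

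The tract was looked for at the annotated start of each gene. RefSeq start regions of GRCm38.p6 were at hand for 44 of the 50 genes. A C at the annotated start followed by at least 4 further C or T, read on the transcribed strand, stood in 8 of them (18.2%), against 813 of 27025 genes in the table (3.01%). Allowing the tract to begin within 5 bases of the start, a window chosen after the first count was seen, gave 20 of 44 (45.5%), against 21.2% of all genes. So 36 of the 44 had no tract at the annotated start, and 24 had none within 5 bases of it. The tract at the start was found in Rpl14, Rpl35, Rpl38, Rplp2, Rps6, Rps10, Rps18 and Rps27. Shown are 4 of these with different behaviour in pull-down and, for contrast, Rps25, which had the largest excess in pull-down and no tract at the annotated base. Each window holds the 30 bases before the start and the 20 from the start on, with the tract in capitals.
Rpl14 (chr9:120571487-120571536, plus strand): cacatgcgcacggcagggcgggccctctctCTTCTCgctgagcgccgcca
Rplp2 (chr7:141447621-141447670, plus strand): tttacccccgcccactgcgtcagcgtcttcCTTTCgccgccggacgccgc
Rps6 (chr4:86857348-86857397, minus strand): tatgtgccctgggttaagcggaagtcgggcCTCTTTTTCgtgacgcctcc
Rps10 (chr17:27635225-27635274, minus strand): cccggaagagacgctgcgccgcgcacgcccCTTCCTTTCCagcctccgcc
Rps25 (chr9:44407684-44407733, plus strand): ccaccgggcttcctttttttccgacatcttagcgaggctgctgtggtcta
The longest tract of these, in Rps10, had 10 bases and the shortest, in Rplp2, had 5. In Rps25 a run of C and T lies upstream of the 1 annotated start.

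Pull-down and whole brain were compared to ask which messages are in excess in Homer1a-expressing cells. Ribosomal protein genes did not move as a block. Rps25, Rpl14 and Rps28 were higher in pull-down, and Rpl8, Rps19, Rplp0, Rplp2, Rps3a1 and Rps14 were lower by more than 2 log2 units, that is more than 4 times lower. In limma with Benjamini-Hochberg adjustment over all probe sets, 7 of 50 genes were higher and 36 lower at an adjusted p under 0.05, where 8.06% of all probe sets were higher and 76.3% lower. Over all genes with 1 probe set each, chosen in the same way, 12.9% were higher and 68.8% lower (median −0.64). The shares of the 50 genes, 14% and 72%, were near these backgrounds. The median difference was −0.55 for the 50 genes and −0.78 for all probe sets. Both medians follow the scaling of the arrays: after quantile normalization they were −0.49 and 0.09, with 8 genes higher and 29 lower (32.3% and 26.2% of all probe sets), and after centring each array on its median 0.60 and 0.37, with 28 higher and 10 lower (52% and 18.3%). Within sleep-deprived mice alone 4 genes were higher and 30 lower (6.74% and 62.7% of all probe sets), and within controls 4 and 33 (6.41% and 66.5%). In these bulk extracts, fewer cells of a type and less RNA per cell cannot be told apart.

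Under all 3 scalings, 3 genes were called higher (6%, against 7.85% of all probe sets) and 10 lower (20%, against 17.9%). The 3 were Rps25, Rpl14 and Rps28, and the 10 were Rpl8, Rplp0, Rplp2, Rps3, Rps3a1, Rps4l, Rps14, Rps15, Rps19 and Rps26. Each call is that of the gene's brightest probe set. The other sets of Rps3 were above 0 after quantile normalization and after centring. The other 37 genes were not called in the same direction under all of them. How the genes stood relative to other bright probe sets depended on the arrays that set the level. In the top 10% by mean over all arrays, pull-down included, the 32 genes there had a median of −0.55 and all 4504 probe sets −0.02. In the top 10% by whole-brain level the 34 genes there had −0.68 and all probe sets −0.63. Both levels came from arrays of this comparison, so neither is independent of the difference.

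**Figure D1:**
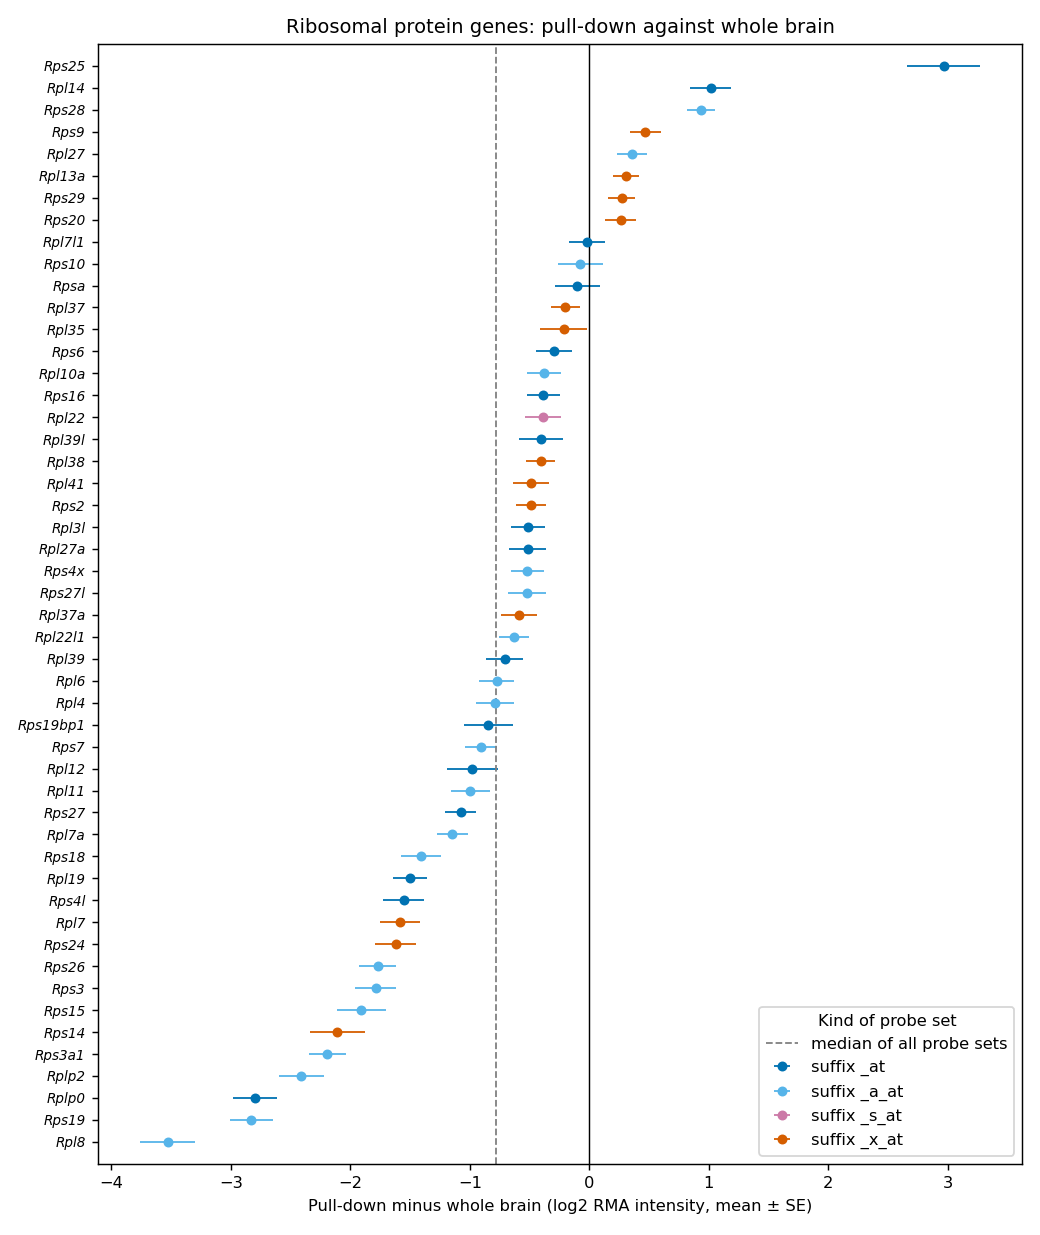
Difference of pull-down from whole brain for each of the 50 genes, in log2 units as deposited, with the standard error as bar and the kind of probe set by colour. The dashed line marks the median of all probe sets, −0.78, and genes run from Rps25 (2.97) at the top to Rpl8 (−3.53) at the bottom, with 28 in place of 7 genes called higher when arrays are centred on their medians.

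Rps25, a small-subunit protein that many internal ribosome entry sites need, had the largest excess. It read 7.20 at the lowest, 9.87 at the median and 10.81 at the highest of 12 pull-down arrays, against 4.98, 5.55, 5.60 and 6.01 in the supernatants and 6.08, 6.68 and 6.92 at the lowest, median and highest of 8 whole-brain arrays. Every pull-down array lay above every array of the other extracts, and the pull-down arrays spread more widely than the others. The difference from whole brain was 2.97 ± 0.31 (SE, n = 12 and 8, adjusted p = 3.06e-09), or 7.81-fold, and that from supernatant 4.04 ± 0.39 (n = 12 and 4). Rps25 was measured by this 1 probe set.

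Rpl14, a large-subunit protein, read 6.99, 8.07 and 8.85 at the lowest, median and highest pull-down array, against 6.57, 7.09 and 7.31 in whole brain. The groups overlapped through pull-down control 11, the lowest, and the difference was 1.02 ± 0.17 (adjusted p = 6.08e-06). Rps28, a small-subunit protein near the exit of the message from the ribosome, read 12.78, 13.14 and 13.42 in pull-down, against 12.07, 12.15 and 12.43 in whole brain. These groups did not overlap, and the difference was 0.93 ± 0.12 (adjusted p = 8.74e-08). The 2 other Rps28 probe sets were also higher, by 0.48 and 0.75. After quantile normalization they read 0.098 and 0.41, against 0.55 for the chosen set, and after centring 1.63 and 1.90.

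The remaining genes called higher were Rps9 (0.47 ± 0.13), Rpl27 (0.36 ± 0.13), Rpl13a (0.31 ± 0.11) and Rps29 (0.27 ± 0.11). All of them lost the call after quantile normalization, where Rpl13a and Rps29 read −0.02 and −0.05, and in each their pull-down arrays overlapped with whole brain. Rps29 also lost it without whole-brain control 22 (0.25, adjusted p = 0.0585). Against supernatant Rpl14, Rpl27, Rps9, Rps25, Rps28 and Rps29 were higher too, so 6 of the 50 genes were higher than both other extracts, where 7.46% of probe sets were.

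**Figure D2:**
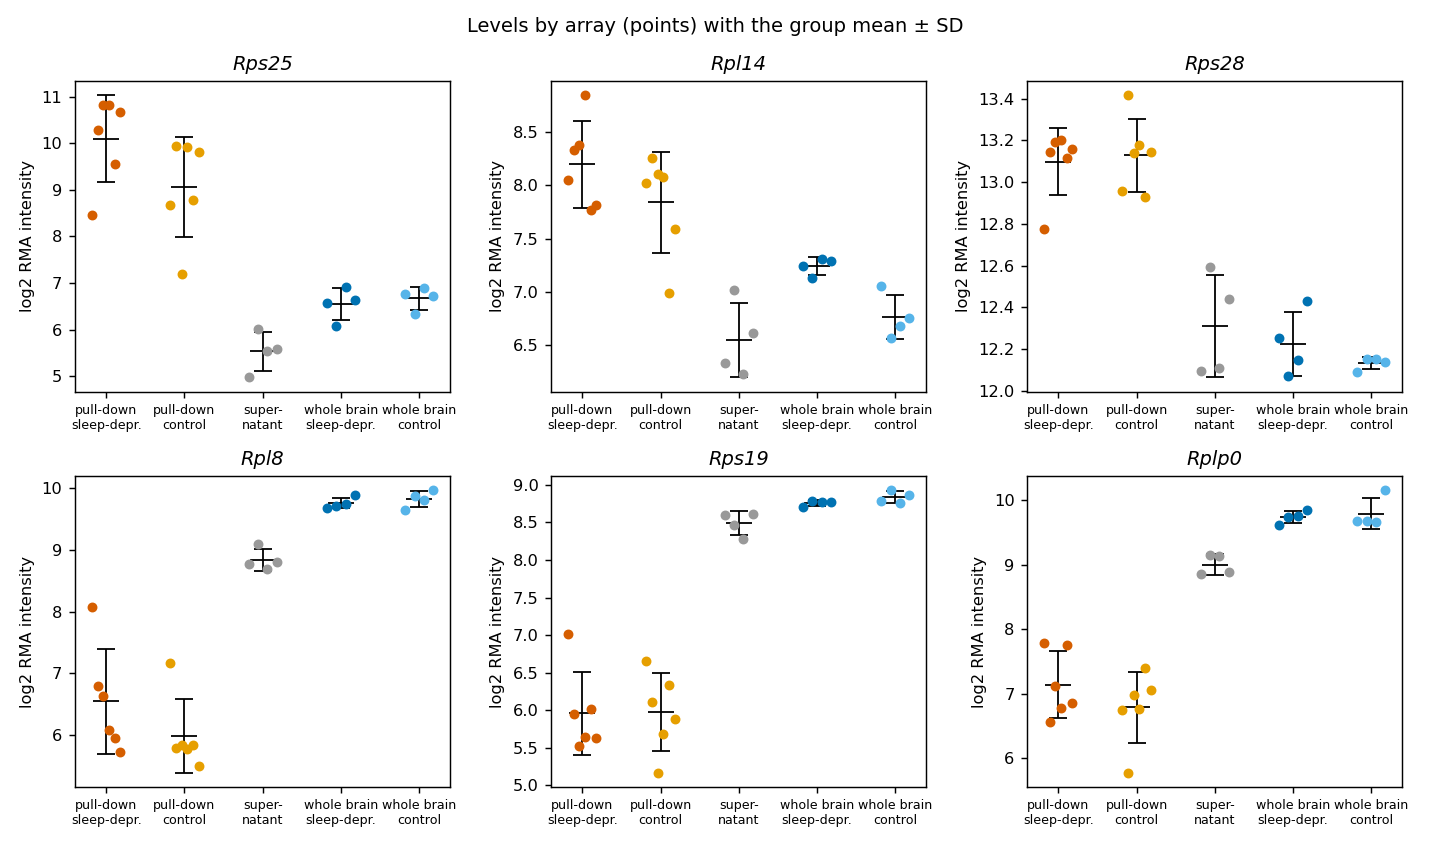
Log2 RMA intensity of 6 genes in each of the 24 arrays (points), with the mean and SD of each group (n = 6, 6, 4, 4 and 4 from left to right) and axes that do not start at 0. Pull-down arrays lie above whole brain for Rps25 and Rps28 and below it for Rpl8, Rps19 and Rplp0, and overlap with it for Rpl14.

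The large-subunit protein Rpl8 lies close to the site where the peptide bond is made, and it was the lowest in pull-down relative to whole brain. It read 5.51, 5.90 and 8.07 at the lowest, median and highest pull-down array, against 8.69, 8.77, 8.81 and 9.10 in the supernatants and 9.65, 9.78 and 9.97 in whole brain. No pull-down array reached the other extracts, and the 2 highest were sleep-deprived 1 (8.07) and control 3 (7.17). These were also the 2 pull-down arrays with the most 18S signal, 11.04 and 11.14, and without them the difference from whole brain was −3.80. With all arrays the difference from whole brain was −3.53 ± 0.23 (n = 12 and 8, adjusted p = 7.75e-13), and that from supernatant −2.58 ± 0.29.

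The stalk of the large subunit, which recruits elongation factors, is built of Rplp0 with Rplp1 and Rplp2. Rplp0 read 5.78, 6.92 and 7.79 at the lowest, median and highest pull-down array, against 9.62, 9.71 and 10.16 in whole brain, and differed by −2.80 ± 0.18 (adjusted p = 9.24e-13). Rplp2 read 7.96, 8.69 and 9.94 in pull-down, against 10.98, 11.14 and 11.42 in whole brain, and differed by −2.41 ± 0.19 (adjusted p = 2.27e-11). In neither gene did the groups overlap.

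In the small subunit, Rps19, whose human gene is the one most often mutated in Diamond-Blackfan anaemia, read 5.17, 5.92 and 7.02 in pull-down, against 8.70, 8.78 and 8.93 in whole brain. Its groups did not overlap, and the difference was −2.83 ± 0.18 (adjusted p = 5.95e-13). Rps3, at the entry of the message into the ribosome, differed by −1.79 ± 0.18 and Rps3a1 by −2.19 ± 0.15. By its other sets, 1455600_at and 1447563_at, Rps3 differed by −0.24 and −0.41, and by 0.92 and 0.74 after centring. Rps26, near the message exit, differed by −1.77 ± 0.16. Rps14 differed by −2.11 ± 0.23, Rps15 by −1.91 ± 0.21 and Rps24 by −1.62 ± 0.17, the last losing its call after centring (−0.47, adjusted p = 0.0715). Pull-down lay wholly below whole brain in 20 genes (27.5% of all probe sets) and wholly above it in 2 (3.35%). By subunit, 20 of 25 large-subunit and 15 of 23 small-subunit genes were lower (80% and 65.2%, against 76.3% of all probe sets), with medians of −0.59 and −0.52 that became 0.57 and 0.63 after centring.

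Rpsa, which encodes the laminin receptor that doubles as a small-subunit protein, read 10.92, 11.40 and 12.38 at the lowest, median and highest pull-down array, against 11.50, 11.68 and 11.87 in whole brain. Its pull-down values fell on both sides of the whole-brain range, and the difference of −0.10 ± 0.19 did not pass (adjusted p = 0.618), but after quantile normalization it was lower (−0.39) and after centring higher (1.05). Rps6, the small-subunit protein that S6 kinase phosphorylates when mTOR is active, read 6.79, 7.54 and 8.15 in pull-down, against 7.62, 7.86 and 8.13 in whole brain. Its difference was −0.30 ± 0.15 (adjusted p = 0.0738), and it was 0.48 after quantile normalization and 0.86 after centring.

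Some members are paralogs of other ribosomal protein genes. Rpl22l1 stood between the extracts, with 7.88 ± 0.20 in pull-down (SD, n = 12), 6.99 ± 0.21 in supernatant (n = 4) and 8.51 ± 0.22 in whole brain (n = 8), and was thus lower than whole brain by 0.63 ± 0.13 and higher than supernatant by 0.90 ± 0.16. Rpl22, the gene it is named after, differed from whole brain by −0.39 ± 0.15. Rps27l, a target of p53, differed by −0.52 ± 0.16 from whole brain and by 0.52 ± 0.20 from supernatant, and Rps27 by −1.08 ± 0.13 from whole brain. Of these differences from whole brain, all 4 were above 0 after centring. Rps4l differed by −1.55 ± 0.17 and was lower under all 3 scalings. The mean levels in pull-down were low for Rps4l (4.42, against 5.98 in whole brain) and Rps27 (4.14, against 5.22). The X-linked Rps4x differed by −0.52 ± 0.13 and was higher after centring, by 0.64. Rpl3l, known from striated muscle, and Rpl39l, known from testis, had levels at the low end of the arrays, with means of 3.69 and 4.23 in pull-down, against 4.21 and 4.63 in whole brain. Both were called lower as deposited (−0.52 and −0.40), were above 0 after either other scaling, and Rpl39l lost its call when any of 12 single arrays was left out. Of the genes that are not subunits, Rps19bp1 differed by −0.84 ± 0.21 and Rpl7l1 by −0.02 ± 0.15, and both were above 0 after either other scaling.

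By kind of probe set, 2 of 20 _a_at sets were higher and 17 lower (10.9% and 78.2% of all _a_at sets), 2 of 16 _at sets higher and 11 lower (5.79% and 78.8%), 3 of 13 _x_at sets higher and 7 lower (27.5% and 47.5%), and the 1 _s_at set lower (18.4% of such sets higher, 64.1% lower). The median difference of the chosen sets was −0.95 for 20 _a_at sets, −0.52 for 16 _at sets and −0.40 for 13 _x_at sets, against −0.97, −0.80 and −0.32 for all probe sets of these kinds. The single _s_at set, of Rpl22, read −0.39. Over all 106 probe sets of the genes, 23 of 28 _a_at, 27 of 35 _at, 26 of 40 _x_at and 3 of 3 _s_at sets were lower. After centring, 9 _a_at sets were higher and 13 lower, 19 _at sets higher and 4 lower, 26 _x_at sets higher and 8 lower, and 2 _s_at sets higher and 1 lower. Over all kinds 52% of probe sets were then higher and 18.3% lower. The shares of each kind over all probe sets were not computed after centring.

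Probe sets of 1 gene often gave different answers. Of 24 genes with 2 or more probe sets, 12 had a different change in pull-down between their 2 brightest sets (limma on the within-array difference, adjusted p under 0.05), where 65% of 9010 such genes did. The widest range was in Rps9. The set 1434624_x_at, which stands for it above, was higher in pull-down by 0.47 ± 0.13, whereas 1433689_s_at read 4.99 ± 0.68 in pull-down (n = 12), against 9.34 ± 0.10 in whole brain (n = 8), a difference of −4.35 ± 0.22. In Rpl13a, known for silencing the messages of inflammatory genes outside the ribosome, 1455485_x_at, 1455001_x_at and 1433928_a_at read 0.31, 0.43 and 0.47, and 1417608_a_at read −3.64. In Rps10, of which 6 sets were on the array, 1434854_a_at read −0.08 and 1439374_x_at 0.12, with the other 4 between −1.05 and −3.34. The low sets 1433689_s_at of Rps9, 1417608_a_at of Rpl13a and 1416719_a_at of Rps10 stayed lower after quantile normalization and after centring (−3.20, −2.49 and −2.18 after centring).

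The median range over the 24 genes was 1.04 log2 units, and 6 genes had sets of both signs. The brightest set had the highest difference in 13 of the 24 and the lowest in 4. With the mean of all sets of a gene in its place, the median difference was −0.80, and 3 genes were higher and 43 lower (4.82% and 80.9% of all 18193 genes). Against supernatant 5 were higher and 31 lower in this way (7.96% and 70.2%). Against whole brain Rps9, Rpl27 and Rpl13a read −1.74, −0.32 and −0.61. In 16 genes with sets of both sorts, _s_at and _x_at sets read higher on average than _at and _a_at sets in 11. The share over all genes with both sorts was not computed. Over all probe sets the medians were −0.66 for _s_at and −0.32 for _x_at sets, against −0.80 for _at and −0.97 for _a_at sets.

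**Figure D3:**
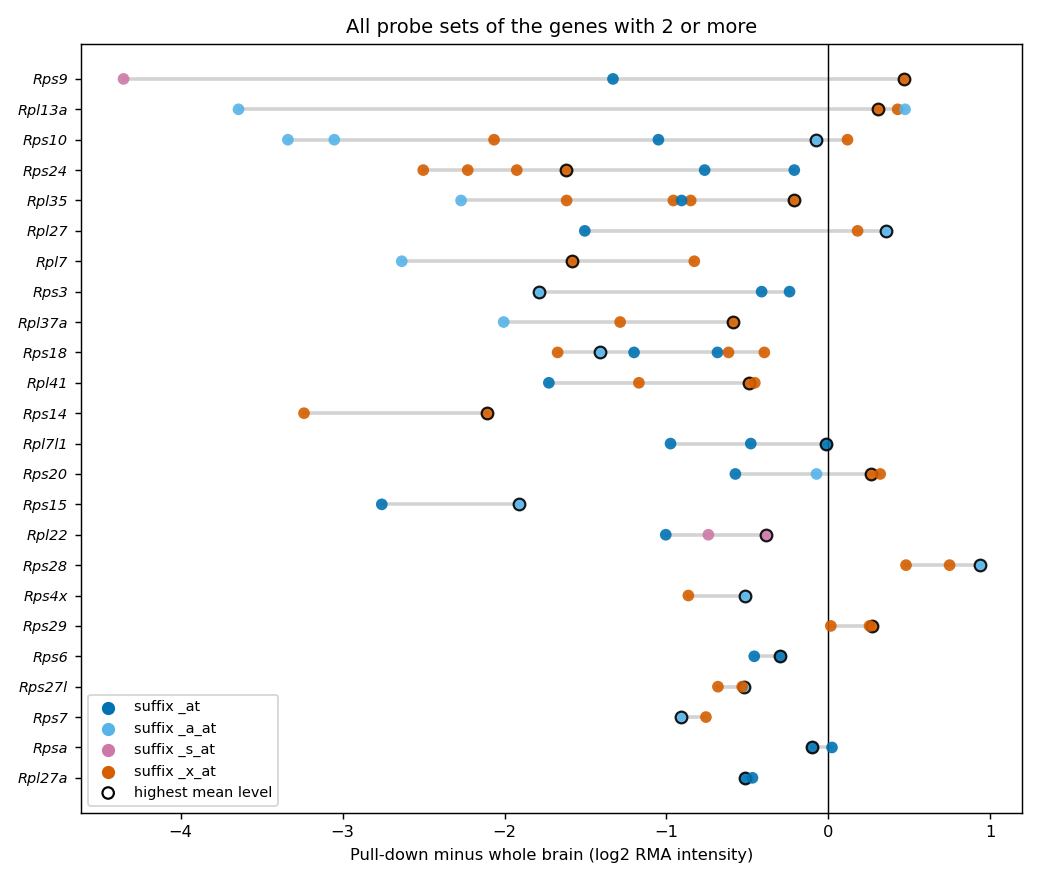
Difference of pull-down from whole brain (log2 as deposited) for every probe set of the 24 genes with 2 or more, by kind of probe set, with the set of the highest mean level ringed. Rps9 and Rpl13a span more than 4 log2 units, from −4.35 to 0.47 and from −3.64 to 0.47.

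Other genes of the translation machinery were set beside the ribosomal protein genes, and their counts are to be read against the 8.06% of all probe sets that were higher and 76.3% that were lower (32.3% and 26.2% after quantile normalization, 52% and 18.3% after centring). Fau, which encodes a small-subunit protein fused to a ubiquitin-like one, differed by −1.73 ± 0.16 in pull-down and was lower under all 3 scalings. Of 22 other genes known for an oligopyrimidine tract, 3 were higher and 14 lower (median −0.61), with 5 and 12 once quantile-normalized and 12 and 2 once centred. The initiation factor subunit Eif3k (−2.16), the RNA-binding protein gene Ybx1 (−1.83) and the elongation factor Eef2 (−1.74) had the largest differences, of which Eef2 lost its call after centring (−0.58, adjusted p = 0.0708). Of 57 ribosome assembly genes, 9 were higher and 41 lower, with 16 and 18 once quantile-normalized and 23 and 8 once centred. By their brightest probe sets, partners in an RNA-modifying complex went opposite ways under all 3 scalings, the pseudouridine synthase Dkc1 at 3.51 and its partner Nhp2 at −3.05. Of further partners, Nop10 (2.05) was higher under all 3 scalings, and Gar1 (−1.54) was lower but lost its call after centring. The set of Dkc1 is of the kind _s_at, designed without full specificity for a single gene, and other sets of these partners were not compared. The assembly gene Rrp1 (−2.43) was lower under all 3 scalings. Of 20 regulators, 1 was higher and 15 lower, with 4 and 9 once quantile-normalized and 11 and 4 once centred. The mTOR partner Rptor (−2.77), its inhibitor Tsc2 (−2.58) and the S6 kinase gene Rps6kb2 (−2.05) were lower under all 3 scalings. Of 76 mitochondrial ribosomal protein genes, 16 were higher and 49 lower (median −0.70), with 31 and 21 after quantile normalization and 39 and 9 after centring.

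Pull-down was also set against supernatant. Here 11 genes were higher and 24 lower, where 11.2% of probe sets were higher and 67.4% lower, and the median was −0.45 for the genes and −0.85 for all. After quantile normalization 9 were higher and 25 lower (27.2% and 27.6% of all probe sets), and after centring 30 and 5 (44.1% and 18.8%). Pull-down lay wholly above supernatant in 7 genes (6.39%) and wholly below it in 15 (32.1%). In all, 24 genes were lower than both other extracts (65.8% of all probe sets). The 5 genes that were higher than supernatant and not called higher than whole brain were Rpl7l1 (0.94), Rpl22l1 (0.90), Rps6 (0.52), Rps27l (0.52) and Rps20 (0.41), named after their values were seen.

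Whole brain and supernatant, both total RNA, were compared with each other. Of the 50 genes, 12 were higher in whole brain and 0 lower (limma, adjusted p under 0.05), where 8.89% of probe sets were higher and 2.01% lower. At an unadjusted p under 0.05, 23 were higher and 1 lower (14.5% and 7.89% of all probe sets). The median was 0.42 for the genes and −0.03 for all probe sets, and 39 genes lay above 0, where 46.6% of probe sets did. Over all genes with 1 probe set each, 13.2% were called higher and 1.31% lower, and 52% lay above 0. Bright probe sets in general read higher too: in the top 10% by mean level, the median was 0.41 for the 32 genes and 0.45 for all probe sets. There 18.8% of the genes and 36% of all probe sets were called higher. The level came from these same arrays, with 8 of whole brain and 4 of supernatant, so it is not independent of the difference.

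Rpl22l1 led, with 8.13, 8.55 and 8.85 at the lowest, median and highest of 8 whole-brain arrays, against 6.82, 6.83, 7.04 and 7.25 in the supernatants, without overlap. The difference was 1.53 ± 0.17 (adjusted p = 2.18e-06). Rps3a1 (1.15 ± 0.21), Rps27l (1.04 ± 0.21) and Rpl8 (0.95 ± 0.31, adjusted p = 0.0432) also passed, Rpl8 not when any of 12 single arrays was left out, and Rps25 (1.08 ± 0.41, adjusted p = 0.1) did not. Each SE here rests on the spread within all 5 groups, pull-down included. For Rpl8 the SDs of the pull-down groups were 0.59 and 0.85, and those of the other groups 0.09 to 0.18. For Rps25 they were 0.93 and 1.07, against 0.24 to 0.42. In Rpl8 and Rps25 alike, every whole-brain array read above every supernatant. Whole brain lay wholly above supernatant in 22 genes (12.4% of all probe sets) and wholly below it in 0 (8.65%). The number of genes called higher was 6 without supernatant 13 and 7 without supernatant 15, 26 with array weights (17.5% of all probe sets higher, 13.3% lower) and 31 when the fit held the arrays of these extracts alone (19.5% and 17.5%), with 1 lower in each. Quantile normalization gave 15 higher and 2 lower (11.4% and 9.61% of all probe sets), and centring 7 and 1 (6.73% and 3.91%).

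Sleep deprivation was compared with control within each extract. None of the 50 genes passed in pull-down or in whole brain, and none of the differences between the extracts' responses passed (limma, adjusted p under 0.05). Among all probe sets, 0% were called in either direction in pull-down and in the interaction, and 0.0355% as higher and 0.0111% as lower in whole brain. At an unadjusted p under 0.05, 1 gene was higher and 0 lower in pull-down (0.493% and 0.462% of all probe sets). In whole brain 1 was higher and 1 lower (2.1% and 8.83%), and in the interaction 0 and 0 (0.2% and 0.138%). The precision differed between extracts: the 95% interval of the difference lay within 0.5 log2 units of 0 for 48 of 50 genes in whole brain and for 6 of 50 in pull-down, and within 1 unit for 50 and 48.

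Rps25 had the largest difference in pull-down. It read 8.46, 9.55, 10.29, 10.67, 10.81 and 10.81 after sleep deprivation, against 7.20, 8.68, 8.79, 9.82, 9.92 and 9.93 in controls. The mean of the controls was exceeded by 5 of 6 sleep-deprived arrays, but the groups overlapped, as in all 50 genes (0.04% of all probe sets lay wholly above and 0.0178% wholly below). The difference was 1.04 ± 0.47 (SE, n = 6 and 6, limma unadjusted p = 0.0414, adjusted p = 1, 95% interval 0.05 to 2.03), and 0.67 without control 8. In whole brain the same probe set differed by −0.12 ± 0.17 (n = 4 and 4), and the interaction of 1.16 ± 0.65 did not pass (unadjusted p = 0.0864, adjusted p = 1).

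Rpl14 had the largest difference in whole brain. It read 7.13, 7.24, 7.29 and 7.31 after sleep deprivation, against 6.57, 6.68, 6.75 and 7.05 in controls. All 4 sleep-deprived arrays lay above all 4 controls, which held for this 1 gene and for 1.75% of probe sets, and 0 genes lay wholly below (4.25%). The difference was 0.48 ± 0.12 (limma unadjusted p = 0.00161, adjusted p = 0.25 and 0.101 to 1 over the alternatives, 95% interval 0.22 to 0.74), and in pull-down it was 0.36 ± 0.27. Rps4l differed by −0.36 ± 0.16 in whole brain (limma unadjusted p = 0.0378, adjusted p = 0.433). Next in size were Rpl8 (0.56 ± 0.37), Rpl6 (0.41 ± 0.25), Rpl4 (0.40 ± 0.27) and Rpl19 (0.39 ± 0.24) in pull-down, and Rpl22l1 (−0.20 ± 0.14), Rps27 (0.17 ± 0.13) and Rplp2 (−0.15 ± 0.12) in whole brain, none of them past the test. The median of the 50 genes was 0.06 in pull-down and −0.03 in whole brain, against −0.05 and −0.07 for all probe sets. Above 0 lay 33 genes in pull-down (39.5% of all probe sets) and 19 in whole brain (33.3%). In the top 10% by mean level, 71.9% of the 32 genes there lay above 0 in pull-down and 71.6% of all probe sets, and in whole brain 40.6% and 62.3%.

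**Figure D4:**
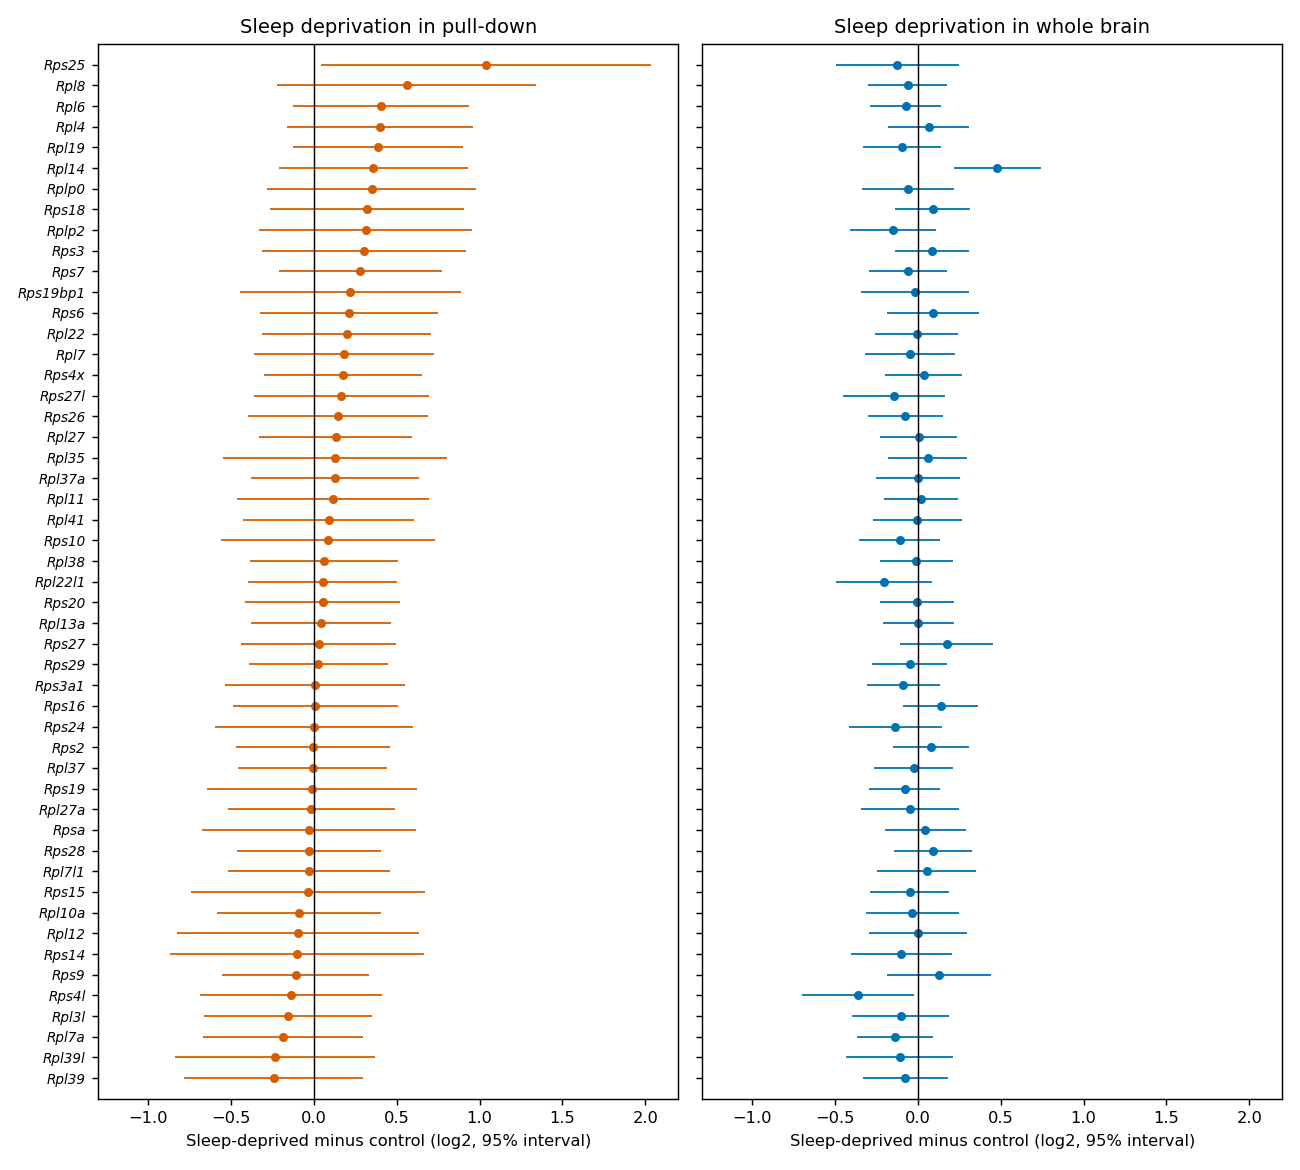
Difference of sleep-deprived from control arrays for the 50 genes in pull-down (left, n = 6 and 6) and whole brain (right, n = 4 and 4), in log2 units with the 95% interval. Intervals are wider in pull-down, where the median half-width was 0.53 against 0.25 in whole brain, and Rps25 (left) and Rpl14 (right) lie farthest above 0.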

How the data were processed

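RNA of 24 mouse brain samples was measured on short-oligonucleotide arrays. The deposited values are log2 intensities, which the authors computed by RMA in the affy package, per the submitters' processing notes. Versions, and whether all extracts were normalized together, are not given in the sources used here. Of 45101 probe sets, 64 controls were left out and 45037 tested. Annotation of the array gave 34945 of them 1 symbol, 932 several and 9160 none. Positions and start regions are from RefSeq (GRCm38.p6).

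No filter was set on these values. Tests were two-sided, by limma 3.58.1 under R 4.3.3, with Benjamini-Hochberg adjustment over all probe sets and a threshold of 0.05, after tests on simulated data. Comparisons of extracts came from 1 fit of 24 arrays in 5 groups, where sleep-deprived and control groups had equal weight within pull-down and within whole brain. Sleep deprivation was fitted on each extract's own arrays, and the interaction on both extracts. Alternatives were quantile normalization, centring, array weights, a variance trend, a level filter, other probe sets per gene, the arrays in the fit and arrays left out. Calls shared by all 3 scalings and the top 10% by level were added after seeing the data. Arrays have no read depth, and their number limits the precision. No detection calls were used here. No 2 arrays were identical (highest r = 0.991 over probe sets, which are not independent replicates). Labels do not tie supernatants to pull-downs. Each p-value sets a difference against the spread between arrays within groups, in comparisons of extracts 1 estimate shared by all 5 groups.

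Genes named in the text are up to 10 called higher (7 were) and the 10 lowest called in pull-down against whole brain. Pull-down against supernatant had no selection of its own. Named too are the 5 with the largest difference in each sleep deprivation comparison and in whole brain against supernatant. Paralogs with the gene they are named after and a fixed few (such as Rplp0, Rpsa and Rps6) were added. From the lists of translation, assembly and regulator genes came the 3 with the largest difference. Genes named by their probe sets or their tract, Rps4x, Nop10, Gar1 and the cell type markers go beyond this rule. The genes, lists and tests were chosen with earlier results of these data known.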

Additional observations from a re-analysis of the deposited data

Results flagged for a closer look

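Among 250 combinations of gene and group, 21 had an array that stood apart from the rest of its group by Dixon's test, where chance gives about 1 in 20, or 12.5. Pull-down control 3, the pull-down array with the most 18S signal, was high for Rpl8 (7.17, against 5.51 to 5.84 in the others), Rpl12 (6.30), Rps2 (10.96) and Rps15 (10.81). Pull-down after sleep deprivation 1, the next in 18S signal, was high for Rps19 (7.02) and Rplp2 (9.94) and low for Rps28 (12.78). Pull-down control 11 was low for Rpl22 (9.23), Rpl38 (12.09), Rps6 (6.79) and Rps20 (11.44). This array had the highest median (5.70) and the smallest 3′ minus 5′ difference of Gapdh (3.29) among pull-downs, and the part of these in its values was not tested. Single values stood apart in pull-down after sleep deprivation 3 for Rpl13a (13.51), pull-down after sleep deprivation 12 for Rps9 (12.77) and pull-down control 9 for Rps3a1 (10.15). In supernatant 16 Rpl39l was low (4.47). In whole brain after sleep deprivation 18 Rps19 was low (8.70). Among whole-brain controls, array 25 was high for Rplp0 (10.16) and Rps4l (6.46) and low for Rps18 (11.61), array 22 was low for Rpl37a (10.98) and array 23 low for Rps2 (10.80).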

How the results depend on the processing

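No paired analysis was possible because the groups compared share fewer than 2 replicate numbers. Centring moved the genes higher and lower against whole brain to 28 and 10 (median 0.60), against supernatant to 30 and 5 (0.72), and for whole brain against supernatant to 7 and 1, where quantile normalization gave 2 lower. The mean of all probe sets of a gene gave 3 higher and a median of −0.80 against whole brain, and 5 higher and −0.65 against supernatant, and _at and _a_at sets alone gave medians of −0.84 and −0.68. For whole brain against supernatant, array weights gave 26 higher and 1 lower, and a fit of these arrays alone 31 and 1. Within sleep-deprived and within control arrays, 4 and 4 genes were higher against whole brain. Leaving out 1 array gave 6 to 8 higher and 35 to 37 lower against whole brain, 9 to 12 higher and 24 to 25 lower against supernatant, 6 to 12 higher for whole brain against supernatant, and 0 for sleep deprivation in either extract. Against whole brain the sign turned in 14 of the 50 genes after quantile normalization and in 28 after centring. The values that follow are those of genes named by rule that were called under either setting. After quantile normalization, the sign turned for Rpl13a (−0.020), Rps29 (−0.051), Rps6 (0.48), Rps19bp1 (0.041), Rpl22l1 (0.024), Rpl39l (0.55), Rpl3l (0.24), Rpl7l1 (1.04), Rps27l (0.18) and Rpl39 (0.22) against whole brain and for Rps29 (−0.10), Rps19bp1 (0.93), Rpl39l (0.38), Rpl39 (0.039) and Rps27 (0.021) against supernatant. After centring, the sign turned for Rpsa (1.05), Rps6 (0.86), Rps19bp1 (0.31), Rpl22l1 (0.53), Rpl39l (0.75), Rpl3l (0.64), Rpl7l1 (1.14), Rps27l (0.63), Rpl22 (0.77), Rpl39 (0.45) and Rps27 (0.079) against whole brain and for Rps3a1 (0.13), Rps26 (0.14), Rps24 (0.11), Rpsa (1.00), Rps19bp1 (1.15), Rpl39l (0.56), Rpl3l (0.24), Rpl39 (0.41), Rpl7 (0.20) and Rps27 (0.19) against supernatant. With the mean of all probe sets of a gene, the sign turned for Rps9 (−1.74), Rpl27 (−0.32) and Rpl13a (−0.61) against whole brain and for Rps9 (−1.19) against supernatant. With _at and _a_at sets alone, the sign turned for Rps9 (−1.33) against whole brain and for Rps9 (−1.18), Rps24 (0.11) and Rpl22 (−0.76) against supernatant. The cause was not tested. Leaving out 1 array reversed 0 of the named differences and took the call from 29 gene and array combinations, most of them Rpl39l against whole brain and Rpl8 in whole brain against supernatant.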
